A study of Mus musculus with 2 samples.

Results

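Ascorbate, or vitamin C, is carried into cells, made from glucose derivatives and returned from its oxidised form by a small group of proteins. The 8 genes described here are Slc23a1, Slc23a2, Slc23a3, Gulo, Rgn, Slc2a1, Slc2a3 and Cybrd1, of 55536 gene identifiers in the deposited tables. They were chosen by name, as carriers of ascorbate and carriers of its oxidised form, dehydroascorbic acid. The others are the last enzymes of ascorbate synthesis and a reductase that takes electrons from ascorbate. Adrenal glands came from 2 female B6CASTF1/J mice, adults aged 8 to 10 months, and their total RNA was sequenced after reduction of ribosomal RNA, with 300 ng of RNA and ERCC spike-in RNA in each library. B6CASTF1/J mice are the first generation of a cross between C57BL/6J and CAST, a wild-derived line, so each autosomal gene has an allele from each strain. Replicate 2 is animal 3 and replicate 1 is animal 1, and both belong to 1 group, for which the labels give no treatment or mutation. The libraries held 34235715 expected counts over genes in replicate 2 and 40362256 in replicate 1.

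The labels give both libraries the same donor code but different animal numbers, and they were taken as separate animals on the strength of the numbers. No p-values were computed, since there was 1 library per animal, and a difference between animals may be technical. Levels are given in TPM, a share of all transcripts that accounts for transcript length. Markers of the labelled tissue were present, and 10 of 10 genes of the steroid-making cortex and 11 of 11 genes of the chromaffin cells of the medulla reached 1 TPM in both animals. The highest genes of these lists were Hsd3b1, a steroid dehydrogenase, at 8081.67 TPM in replicate 2, against 7281.36 TPM in replicate 1, and Chga, a chromaffin granule protein, at 751.84 TPM in replicate 2, against 773.53 TPM in replicate 1. In whole tissue, more cells of a type and more RNA per cell cannot be told apart.

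As background, the adrenal gland is known for holding more vitamin C than most other organs. Most mammals make ascorbate themselves, mice mainly in the liver, and it reaches other tissues through the blood. SLC23 carriers bring the reduced vitamin into cells together with sodium. Hexose carriers of the SLC2 family take up the oxidised form, which is then reduced inside the cell. In chromaffin granules the reduced vitamin feeds dopamine beta-hydroxylase, the enzyme that makes noradrenaline, and in other cells it keeps iron-dependent hydroxylases active.

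Of the 8 genes, 5 reached 1 TPM in both animals, which is 62.5%, against 54.5% of the 22015 nuclear protein-coding genes. The order of the mean levels was Slc23a2, Gulo, Slc2a1, Slc2a3, Rgn, Cybrd1, Slc23a3 and Slc23a1. Slc23a2 alone held 59.0% of the summed TPM of the 8 genes in replicate 2 and 59.1% in replicate 1. Gulo and Slc2a1 did not differ beyond their spread, with means of 9.33 ± 1.10 TPM for Gulo and 9.06 ± 0.0707 TPM for Slc2a1 (SD, n = 2), and they traded places between the animals. Cybrd1, Slc23a3 and Slc23a1 stayed below 1 TPM in both animals. Of these, Slc23a3 and Slc23a1 had single-digit counts, so their own order rests on a handful of reads.

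**Figure D1:**
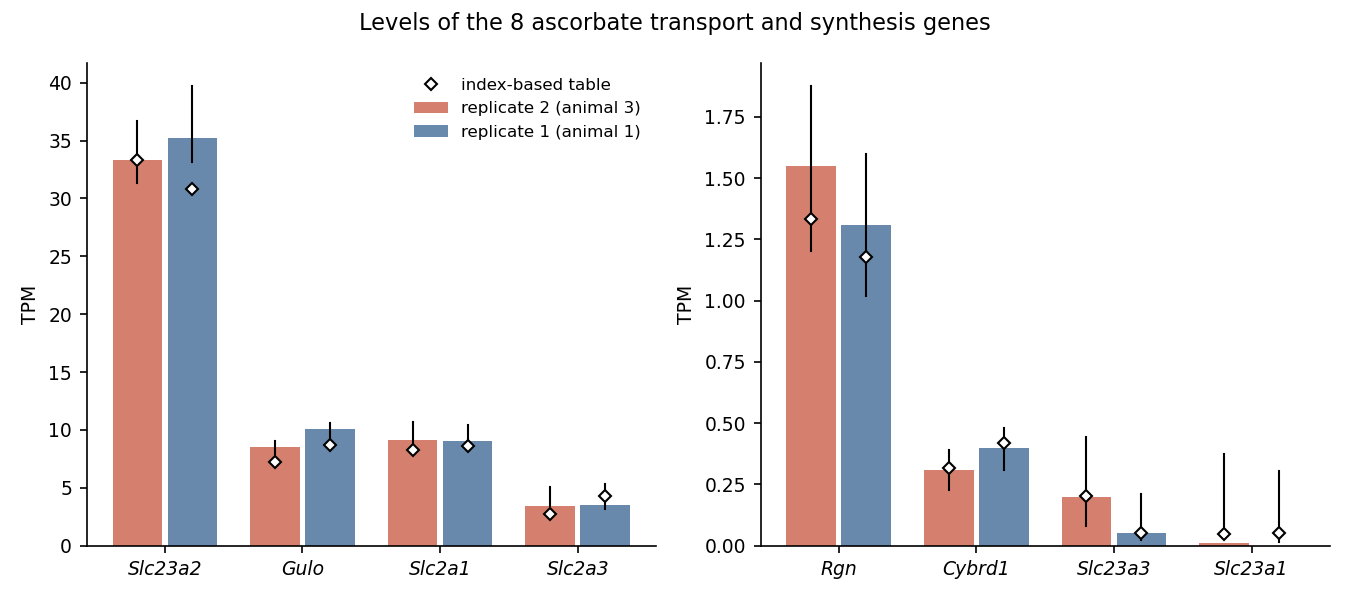
TPM of each gene in replicate 2 (left bar of each pair) and replicate 1 (right bar), with lines for the deposited lower and upper bounds and diamonds for the index-based table; the panels have different linear axes. Slc23a2, at 33.3 TPM in replicate 2, against 35.3 TPM in replicate 1, stands above all other genes, and Slc23a1 lies next to 0 in both animals.

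Slc23a2 encodes the sodium-coupled ascorbate carrier that most tissues use (ENSMUSG00000027340.15, chromosome 2, 132052496 to 132145108, minus strand, mm10). It had 33.33 TPM in replicate 2 (5703 expected counts, deposited bounds 31.4 to 36.7 TPM), against 35.25 TPM in replicate 1 (7290 counts, 33.2 to 39.7 TPM). It ranked at place 2240 of the nuclear protein-coding genes in replicate 2 and at place 2005 in replicate 1. The index-based table, a second quantification of the same reads, gave 33.3 TPM in replicate 2 and 30.8 TPM in replicate 1. The tables therefore put the animals in opposite orders by TPM, while by scaled counts both put replicate 2 lower, with log2 ratios of -0.20 in the alignment-based table and -0.22 in the index-based one. Slc23a2 stood 3.79 ± 0.179 times above Slc2a1 and 3.69 ± 0.289 times above Gulo in TPM (SD, n = 2).

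The level of Slc23a2 came mostly from a single transcript. Slc23a2-201, the coding transcript of 6364 bases, held 79.8% of the gene's TPM in replicate 2 and 83.5% in replicate 1, and of its expected counts 96.6% in replicate 2 and 98.4% in replicate 1. It begins at the start site of the RefSeq promoter printed here, which is given to show the sequence around the start of the dominant transcript, with every motif match in capitals (300 bases, build GRCm38.p6, which is mm10, chr2:132145059-132145358, minus strand, printed 5′ to 3′).
Slc23a2 promoter: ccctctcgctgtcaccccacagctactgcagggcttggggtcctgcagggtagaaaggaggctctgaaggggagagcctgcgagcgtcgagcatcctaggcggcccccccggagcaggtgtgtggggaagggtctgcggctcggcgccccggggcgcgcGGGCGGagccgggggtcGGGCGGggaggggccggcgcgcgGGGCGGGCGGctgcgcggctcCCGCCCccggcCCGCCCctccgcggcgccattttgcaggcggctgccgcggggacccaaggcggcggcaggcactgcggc

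The motifs searched on both strands were GGGCGG (the GC box bound by Sp1), AAGGTCA (the core of the site bound by Nr5a1), ACGTG (a core bound by hypoxia-inducible factors) and TATAAA (the TATA box). The Slc23a2 promoter held 6 matches to GGGCGG, from 91 to 19 bases before the start, with 2 of them overlapping each other, and no match to the other motifs. GGGCGG occurred in 35.7% of the 32851 promoters in the RefSeq table, AAGGTCA in 4.72%, ACGTG in 19.6% and TATAAA in 13.6%. A further RefSeq start of Slc23a2 lies 212 bases upstream, and its promoter window held none of the 4 motifs. A match is a description of the letters, and no binding was measured.

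Of the 5 Slc23a2 transcripts with a mean count of 10 or more, 3 had bounds apart between the animals (Slc23a2-201, Slc23a2-202 and Slc23a2-205), and those of Slc23a2-203 and Slc23a2-207 overlapped. Slc23a2-202, a noncoding processed transcript with 40.6% of its 1638 bases outside the exons of Slc23a2-201, had 2.65 TPM in replicate 2 (bounds 1.89 to 3.29), against 0.92 TPM in replicate 1 (0.553 to 1.36). Slc23a2-205, another noncoding one with 26.8% of its bases outside those exons, had 1.80 TPM in replicate 2 (0.939 to 2.86) and 0.31 TPM in replicate 1 (0.0728 to 0.790). The coding Slc23a2-201 lay the other way, at 26.60 TPM in replicate 2 (25.3 to 26.7) and 29.44 TPM in replicate 1 (28.2 to 29.5). In the index-based table the directions of these 3 transcripts were the same. It gave Slc23a2-202 1.45 TPM in replicate 2, against 0.575 TPM in replicate 1, and Slc23a2-205 2.45 TPM in replicate 2, against 0.423 TPM in replicate 1. For Slc23a2-201 it gave 21.5 TPM in replicate 2, against 23.8 TPM in replicate 1. Noncoding processed transcripts together held 15.8% of the gene's TPM in replicate 2 and 5.73% in replicate 1. In the index-based table they held 24.8% in replicate 2 and 18.2% in replicate 1. There the noncoding Slc23a2-206 held 11.44% of the gene in replicate 1, and the noncoding Slc23a2-204 held 10.85% in replicate 2. The alignment-based table put each at 0 TPM in that library.

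Other genes set the scale for these transcripts. Of 4377 processed transcripts at a mean count of at least 10, 8.48% were higher in replicate 2 with bounds apart and 1.64% lower. Of 11473 transcripts annotated as retained introns, 17.1% were higher in replicate 2 and 0.732% lower, so far more of them were higher than lower in that library. Coding transcripts were more even, with 8.22% of 29024 higher and 6.33% lower. The part of this shift in the Slc23a2 values was not tested. Slc23a2-203, a short coding transcript with a start of its own at 132111448, had 1.46 TPM in replicate 2 and 3.80 TPM in replicate 1 in the alignment-based table but 3.57 TPM in replicate 2, against 1.39 TPM in replicate 1 in the index-based one, so its direction depends on the table.

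Slc23a1, the carrier of gut and kidney epithelium, was at the limit of detection. It had 1 count and 0.01 TPM in replicate 2 and 0 counts in replicate 1, where a count of 3, taken as the limit, corresponds to 0.0310 TPM in replicate 2 and 0.0553 TPM in replicate 1. The index-based table assigned it 6.22 counts or 0.0495 TPM in replicate 2, against 7.84 counts or 0.0532 TPM in replicate 1. Its gene (ENSMUSG00000024354.13, chromosome 18, 35614604 to 35627244) overlaps Paip2 on the opposite strand, which stood at 96.83 TPM in replicate 2, against 101.54 TPM in replicate 1. The labels do not say whether reads were assigned by strand, so these few counts cannot be assigned to Slc23a1 with certainty. Markers of kidney proximal tubule, where Slc23a1 is known to be expressed, summed to 0.21 TPM in replicate 2 and 0.13 TPM in replicate 1, with Kap, Slc34a1 and Slc5a2 at 0 in both.

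Slc23a3, a relative of the ascorbate carriers for which ascorbate transport has not been established, was also low (ENSMUSG00000026205.8, chromosome 1, 75125541 to 75133890). It had 8 counts and 0.20 TPM in replicate 2 and 4 counts and 0.05 TPM in replicate 1. The highest Slc23a3 transcript in replicate 2 was the retained-intron Slc23a3-202, and in replicate 1 the coding Slc23a3-201. Slc23a4, a further family member outside the 8 genes, had 0.23 TPM in replicate 2 and 0.11 TPM in replicate 1. Slc23a2 was thus the single member of this 4-gene family at 1 TPM or more.

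Sequence shared between relatives bears on how far reads of 1 gene could be counted for another. The coding sequences of Slc23a2 and Slc23a3 were identical at 49.7% of aligned positions, and those of Slc23a2 and Slc23a1 at 61.6%. The longest run shared by Slc23a2 and Slc23a1 was 20 bases. That shared by Slc23a2 and Slc23a3 was 15 bases, shown in capitals within 51 coding bases of each gene (GENCODE M21, mm10, chr2:132075506-132075556 and chr1:75125776-75125826, both on the minus strand).
Slc23a2: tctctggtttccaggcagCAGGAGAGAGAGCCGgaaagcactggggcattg
Slc23a3: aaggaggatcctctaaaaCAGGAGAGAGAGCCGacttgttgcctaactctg
No stretch of 100 bases of the main transcripts of these 3 carriers occurred in a transcript of another gene.

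Among the 8 genes are the hexose carriers Slc2a1 and Slc2a3, which take up dehydroascorbic acid, and both were present. Slc2a1 encodes GLUT1, a glucose carrier known from vessel walls (ENSMUSG00000028645.11, chromosome 4, 119108711 to 119137983, plus strand). It had 9.11 TPM in replicate 2 (829 counts), against 9.01 TPM in replicate 1 (958 counts). The values overlapped within their bounds, and the index-based table gave 8.30 TPM in replicate 2, against 8.61 TPM in replicate 1. Slc2a3 encodes GLUT3, the high-affinity glucose carrier best known from neurons (ENSMUSG00000003153.10, chromosome 6, 122727809 to 122801640, minus strand). It had 3.40 TPM in replicate 2 (440 counts) and 3.54 TPM in replicate 1 (370 counts). The deposited bounds of Slc2a3 in replicate 2, 3.45 to 5.07 TPM, lie above its deposited TPM, so they are not centred on it. Slc2a1 was 2.61 ± 0.0949 times above Slc2a3 in TPM (SD, n = 2), but the index-based table gave a ratio of 3.02 in replicate 2 and 2.00 in replicate 1, a far wider spread.

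In the alignment-based table Slc2a1 was spread mostly over a coding form and a form with an early stop codon. The coding Slc2a1-201 had 5.71 TPM in replicate 2 and 5.37 TPM in replicate 1, or 62.6% of the gene's TPM in replicate 2 and 59.6% in replicate 1. Slc2a1-204, annotated as a target of nonsense-mediated decay, the pathway that removes messengers with an early stop codon, had 3.25 TPM in replicate 2 (bounds 1.98 to 4.45) and 3.56 TPM in replicate 1 (2.26 to 4.69). That was 35.6% of the gene in replicate 2 and 39.5% in replicate 1, while the index-based values were 33.4% in replicate 2 and 41.0% in replicate 1. The bounds are wide, and the animals did not differ beyond them. The index-based table also gave 13.2% of the gene to Slc2a1-202 in replicate 2 and 14.1% to Slc2a1-203 in replicate 1, both annotated as coding.

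Slc2a1-204 skips exon 5 of Slc2a1-201 (chromosome 4, 119133097 to 119133259). The exon has 163 bases, which leaves a remainder of 1 after division by 3, so the reading frame shifts and a stop codon follows 3 bases into exon 6. The junctions are printed to show where exon 5 is skipped. Capitals mark the first bases of exon 5 in Slc2a1-201 and the stop codon in Slc2a1-204 (GENCODE M21, mm10, plus strand, spliced sequence, from 119132654 to 119133126 for Slc2a1-201 and from 119132654 to 119133357 for Slc2a1-204).
Slc2a1-201: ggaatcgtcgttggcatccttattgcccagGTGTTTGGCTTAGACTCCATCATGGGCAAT
Slc2a1-204: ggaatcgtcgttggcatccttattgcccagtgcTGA
Slc2a1-204 also ends 653 bases before Slc2a1-201. The full lengths are 2241 bases for Slc2a1-204 and 3260 bases for Slc2a1-201, so the exon and the end do not cover the whole difference. The place of the remaining difference was not examined. Reads over the junction, that end and any other differing part bear on the split, and their shares cannot be separated in these tables.

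The RefSeq promoter of Slc2a1 differs from that of Slc23a2 in its motifs. It is printed with the motif matches in capitals (build GRCm38.p6, chr4:119108495-119108794, plus strand).
Slc2a1 promoter: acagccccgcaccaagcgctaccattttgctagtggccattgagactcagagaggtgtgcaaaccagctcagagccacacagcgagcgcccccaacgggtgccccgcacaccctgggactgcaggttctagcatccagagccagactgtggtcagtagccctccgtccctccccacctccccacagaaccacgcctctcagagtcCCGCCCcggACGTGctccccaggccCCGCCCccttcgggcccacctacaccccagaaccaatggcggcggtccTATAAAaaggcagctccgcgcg
It held 2 matches to GGGCGG, 1 to ACGTG and 1 to TATAAA, which begins at base 29 counted with the RefSeq start as base 1. The GENCODE start of Slc2a1-201 lies 34 bases upstream of that start. Promoters were found in the table for 4 of the 8 genes. Of the other matched genes, Cybrd1 held 2 matches to GGGCGG and Slc23a3 2 to ACGTG.

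Slc2a3 gave different answers by counts and by TPM. Its counts were higher in replicate 2, with a log2 ratio of 0.40 after scaling (95% counting interval 0.20 to 0.61), while its gene TPM was level in the alignment-based table. The index-based table put the gene TPM of Slc2a3 the other way from the counts, at 2.75 TPM in replicate 2, against 4.30 TPM in replicate 1. The coding Slc2a3-201 was higher in replicate 2 on either measure, at 3.10 TPM (bounds 2.66 to 3.30), against 2.14 TPM in replicate 1 (1.79 to 2.30), and at 2.35 TPM in replicate 2, against 1.56 TPM in replicate 1 in the index-based table. Slc2a3-201 took 89.9% of the gene's counts in replicate 2 and 86.7% in replicate 1, but of its TPM 91.1% in replicate 2 and 60.3% in replicate 1. In replicate 1 the 315-base Slc2a3-208 received 18.9% of the gene's TPM from 5.60 counts, and in replicate 2 it received none. The deposited effective length of the gene was accordingly 3914 bases in replicate 2 and 2684 bases in replicate 1. In the index-based table of replicate 1 another short transcript, Slc2a3-205, was the highest, at 1.70 TPM from 15.5 counts. Slc2a3-202 held 15.8% of the gene there, and the retained-intron Slc2a3-204 held 10.0% in the index-based table of replicate 2.

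**Figure D2:**
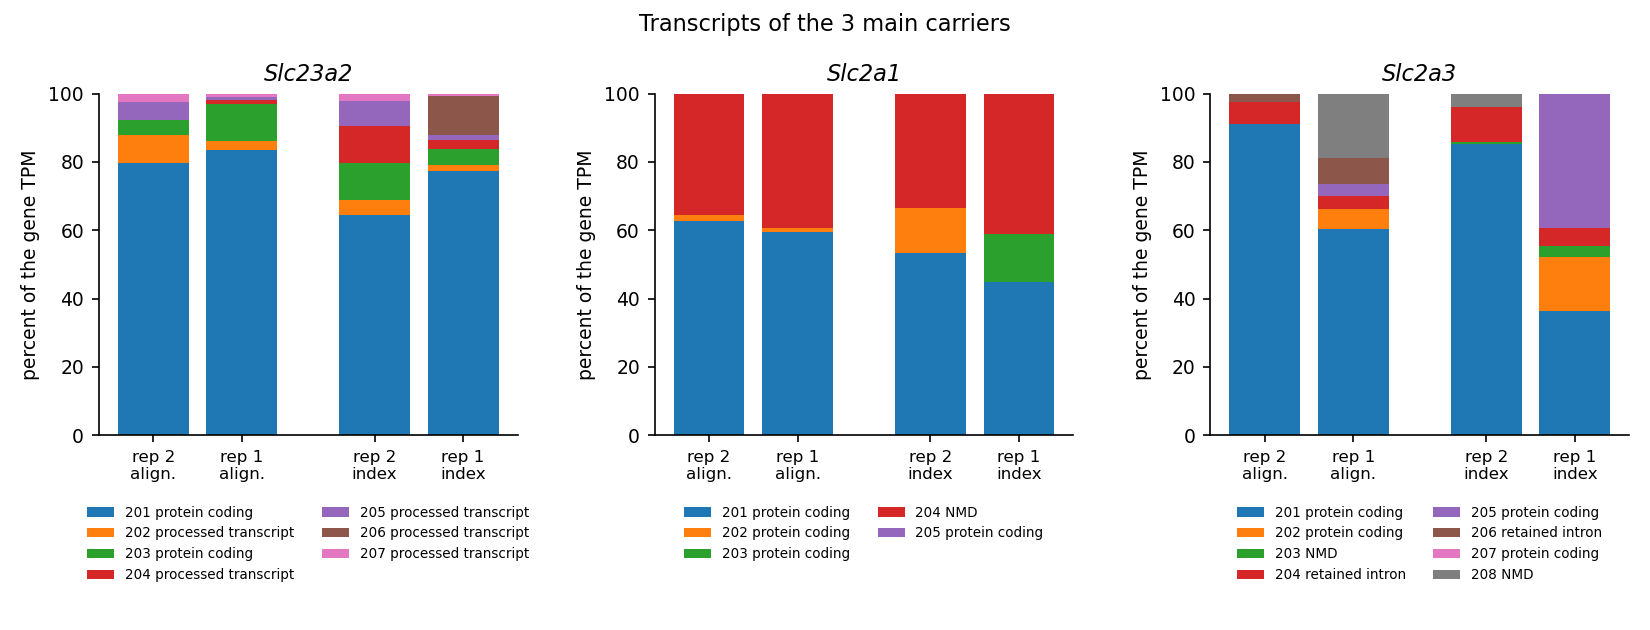
Percent of the TPM of Slc23a2, Slc2a1 and Slc2a3 held by their annotated transcripts, for replicate 2 and replicate 1 in the alignment-based table (left pair of bars) and the index-based table (right pair); NMD stands for nonsense-mediated decay. In these 3 genes transcript 201 is the largest in all bars but the index-based bar of Slc2a3 in replicate 1, and Slc2a1-204 takes 33.4% to 41.0% of Slc2a1 throughout.

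The coding sequences of Slc2a1 and Slc2a3 were identical at 67.7% of aligned positions. The main transcript of Slc2a3 shared no stretch of 100 bases with another gene. That of Slc2a1 shared 6 of 3161 such windows with Gm12868, an antisense gene that stood at 0 in both animals. Gm4482, a pseudogene within Slc2a3, had 0.45 TPM in replicate 2 and 0.19 TPM in replicate 1.

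Both enzymes that end ascorbate synthesis in mice were detected. Gulo encodes L-gulonolactone oxidase, which makes ascorbate in the last step and which humans lack in working form (ENSMUSG00000034450.8, chromosome 14, 65986786 to 66009207, minus strand). It had 8.55 TPM in replicate 2 (611 counts, bounds 7.72 to 9.05), against 10.1 TPM in replicate 1 (850 counts, bounds 9.27 to 10.6). Rgn encodes regucalcin, the gluconolactonase of the step before (ENSMUSG00000023070.6, chromosome X, 20549787 to 20562089, plus strand). It had 77 counts in either animal, or 1.55 TPM in replicate 2 (1.20 to 1.88) and 1.31 TPM in replicate 1 (1.02 to 1.60). Gulo exceeded Rgn 5.52-fold in replicate 2 and 7.71-fold in replicate 1. Gulo was the single gene of the 8 whose bounds did not overlap between the animals, lower in replicate 2. Of the 12645 genes with a mean count of 100 or more, 27.4% had bounds apart, 18.1% higher in replicate 2 and 9.31% lower.

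Gulo and Rgn are both known as liver genes, and liver markers were also in these libraries. All 8 liver markers were detected, and their summed TPM was 31.22 in replicate 2 and 11.45 in replicate 1, with Alb, serum albumin, at 18.71 TPM in replicate 2, against 5.56 TPM in replicate 1. All 8 were higher in replicate 2, with a median log2 ratio of 1.44. The log2 ratio of Gulo was -0.32 and that of Rgn was 0.15. The ratio of Gulo to Alb was 0.457 in replicate 2 and 1.82 in replicate 1. The part of liver RNA in the Gulo and Rgn levels was not tested. Rgn, at 77 counts in either animal, had a ratio to Alb of 0.0828 in replicate 2 and 0.236 in replicate 1.

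Cybrd1 encodes the duodenal cytochrome b reductase, which reduces iron at the gut surface with electrons from ascorbate (ENSMUSG00000027015.4, chromosome 2, 71117923 to 71142926, plus strand). It had 0.31 TPM in replicate 2 (53 counts, bounds 0.228 to 0.389) and 0.40 TPM in replicate 1 (81 counts, 0.310 to 0.480). The bounds overlapped. Its main transcript shared 32 of 5240 windows of 100 bases with transcripts of 13 other genes, so the origin of reads in those windows is uncertain. Among iron genes, Slc11a2, the carrier that takes up the iron this reductase frees, stood far higher at 38.73 TPM in replicate 2, against 39.77 TPM in replicate 1.

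The animals were compared by the log2 ratio of scaled counts, replicate 2 over replicate 1, in genes with a mean count of 10 or more. A ratio of 2-fold or more either way was counted as a difference, which 6.36% of the 17758 genes tested reached. Of the 8 genes, 6 passed the count filter and 0 reached 2-fold, and 0 of the 4 with a mean count of 100 or more met the stricter rule of 2-fold with bounds apart, which 1.18% of 12645 genes met. Slc23a2 had a log2 ratio of -0.20 (95% counting interval -0.25 to -0.15), Gulo -0.32 (-0.47 to -0.17), Slc2a1 -0.05 (-0.19 to 0.08), Rgn 0.15 (-0.32 to 0.63) and Cybrd1 -0.45 (-0.98 to 0.06). The intervals of Slc23a2, Gulo and Slc2a3 left out 0, but they cover counting error only and not the spread between animals. The median over the 6 genes was -0.13, against 0.00 over all genes tested, and 50% of all genes had an absolute log2 ratio above 0.20. With 2 libraries no measure of likeness between gene patterns was computed.

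**Figure D3:**
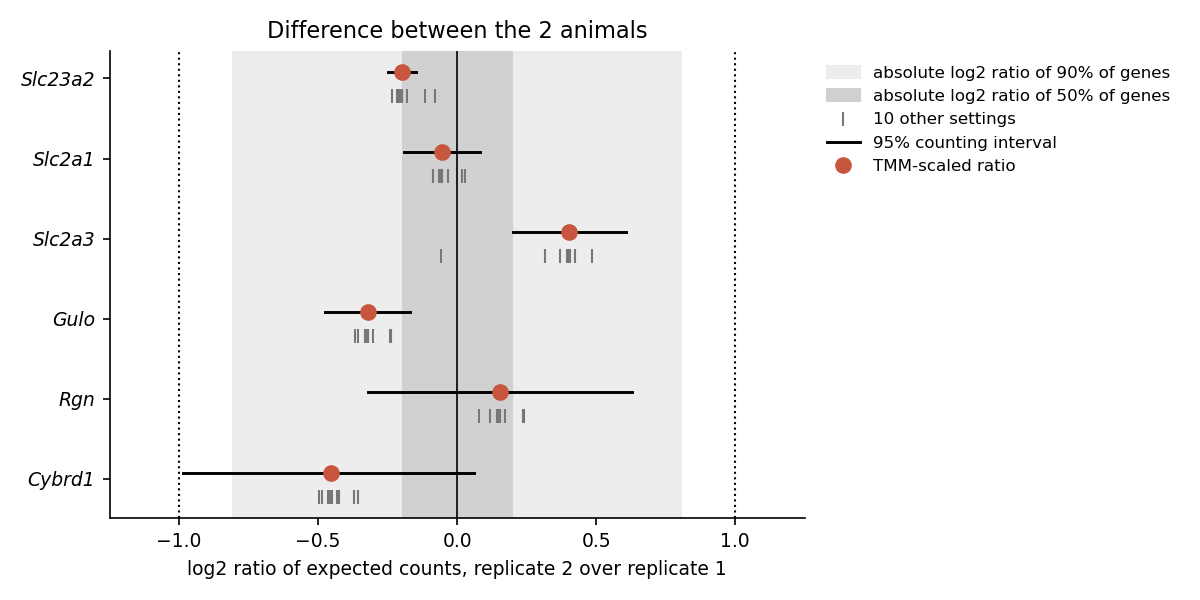
Log2 ratio of expected counts, replicate 2 over replicate 1, for the 6 genes with a mean count of 10 or more, with 95% counting intervals, ticks for 10 other scalings, pseudocounts and tables, and dotted lines at 2-fold. All 6 ratios lie between the dotted lines, and the tick of Slc2a3 on the other side of 0 is its deposited TPM at -0.06.

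The wider pathway was described with gene lists, which also include Slc23a1, Slc23a2, Slc23a3, Gulo, Rgn and Cybrd1. Of 91 genes on 11 lists, 84 passed the count filter, 1 was called higher in replicate 2 (4.22% of all genes were) and 1 lower (2.14%). The median log2 ratios of the lists lay between -0.18 and 0.25, against 0.00 over all genes. The lowest were the iron and hypoxia hydroxylase lists, and the highest was the SLC23 family with 2 genes tested. Of these 2, Slc23a2 had -0.20 and Slc23a4 had 0.70, from 12 counts in replicate 2 and 8 in replicate 1. Of the 11 genes on the list of ascorbate synthesis and companion enzymes, which includes Gulo and Rgn, 10 reached 1 TPM in both animals. Akr1a1, the reductase that forms gulonate, had 365.62 TPM in replicate 2 and 346.15 TPM in replicate 1, and Ugdh, which makes UDP-glucuronate, 28.63 TPM in replicate 2, against 27.5 TPM in replicate 1. Dcxr, a xylulose reductase of the neighbouring glucuronate route, had 53.47 TPM in replicate 2 and 36.68 TPM in replicate 1. Against these, the last enzymes Gulo and Rgn were among the lower genes of the list.

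Of the genes listed for the return of oxidised ascorbate, 13 of 14 were at 1 TPM or more and 0 were called, but their levels differed widely. Cyb5b, a cytochrome b5 of the outer mitochondrial membrane that feeds the reduction of the ascorbate radical, had 229.13 TPM in replicate 2 and 256.08 TPM in replicate 1. The protein disulfide isomerases Pdia3, at 166.43 TPM in replicate 2, against 168.84 TPM in replicate 1, and P4hb, at 165.21 TPM in replicate 2, against 151.21 TPM in replicate 1, followed. Gsto2, a dehydroascorbate reductase, was the gene below 1 TPM, with 0.90 TPM in replicate 2 and 0.36 TPM in replicate 1.

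The genes that use ascorbate in granules were the highest of those that spend it. Dbh, dopamine beta-hydroxylase, had 129.36 TPM in replicate 2 and 135.78 TPM in replicate 1, and Pam, which amidates peptide hormones, 141.53 TPM in replicate 2, against 141.58 TPM in replicate 1. Cyb561, which passes electrons from cytosolic ascorbate across the granule membrane, led the 11 genes of the cytochrome b561 and related reductase list at 69.73 TPM in replicate 2, against 73.7 TPM in replicate 1. Next on that list came the reductase genes Steap2 and Steap3, for which no use of ascorbate is claimed here. Steap2 had 17.41 TPM in replicate 2, against 17.23 TPM in replicate 1. Steap3 had 18.97 TPM in replicate 2, against 13.61 TPM in replicate 1. Cybrd1 and Frrs1l alone on that list stayed below 1 TPM. None of the 13 tested genes of the copper monooxygenase and cytochrome b561 lists was called. The third copper enzyme, Moxd1, was near 0, at 0.01 TPM in replicate 2, against 0.05 TPM in replicate 1.

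Iron-dependent hydroxylases were present at middle levels. Of 9 collagen hydroxylases 8 reached 1 TPM, led by Plod2 at 67.52 TPM in replicate 2, against 70.72 TPM in replicate 1 and Plod3 at 25.32 TPM in replicate 2, against 24.3 TPM in replicate 1, both lysyl hydroxylases. P4ha1, a prolyl hydroxylase subunit, had 13.84 TPM in replicate 2 and 25.47 TPM in replicate 1, a log2 ratio of -0.96 that falls just short of 2-fold. Of the 9 genes 8 had ratios below 0, and 7 of 8 capsule and fibroblast markers lay below 0 as well, with a summed TPM of 116.0 in replicate 2 and 167.5 in replicate 1. The part of these cells in the hydroxylase values was not tested.

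All 4 hydroxylases of the hypoxia-inducible factors reached 1 TPM, and Egln3 was the pathway gene called lower in replicate 2, also by the stricter rule. It had 1.26 TPM in replicate 2 (107 counts) and 3.07 TPM in replicate 1 (306 counts), a log2 ratio of -1.36. Egln2, a prolyl hydroxylase like Egln3, had 38.7 TPM in replicate 2, against 35.78 TPM in replicate 1, a log2 ratio of 0.03. The oxygen sensor Egln1 had 15.9 TPM in replicate 2, against 19.52 TPM in replicate 1, a log2 ratio of -0.38. Hif1an, the asparaginyl hydroxylase, had 9.98 TPM in replicate 2, against 8.96 TPM in replicate 1, a log2 ratio of 0.02. Egln3 alone of the 4 passed 2-fold. Adipocyte markers lay in the same direction as Egln3, 10 of 10 below 0, with a summed TPM of 1139 in replicate 2 and 2171 in replicate 1, and their part in the Egln3 value was not tested. The 15 TET and JmjC demethylases all reached 1 TPM and 0 were called. Kdm2a, a histone H3 demethylase, led them at 42.16 TPM in replicate 2, against 39.76 TPM in replicate 1. The X-linked Kdm5c had 28.7 TPM in replicate 2, against 33.89 TPM in replicate 1. Kdm6a, also X-linked, had 28.73 TPM in replicate 2, against 24.95 TPM in replicate 1. Of the carnitine enzymes, Tmlhe had 7.05 TPM in replicate 2 and 7.12 TPM in replicate 1, and Bbox1 0.05 TPM in replicate 2, against 0.03 TPM in replicate 1.

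**Figure D4:**
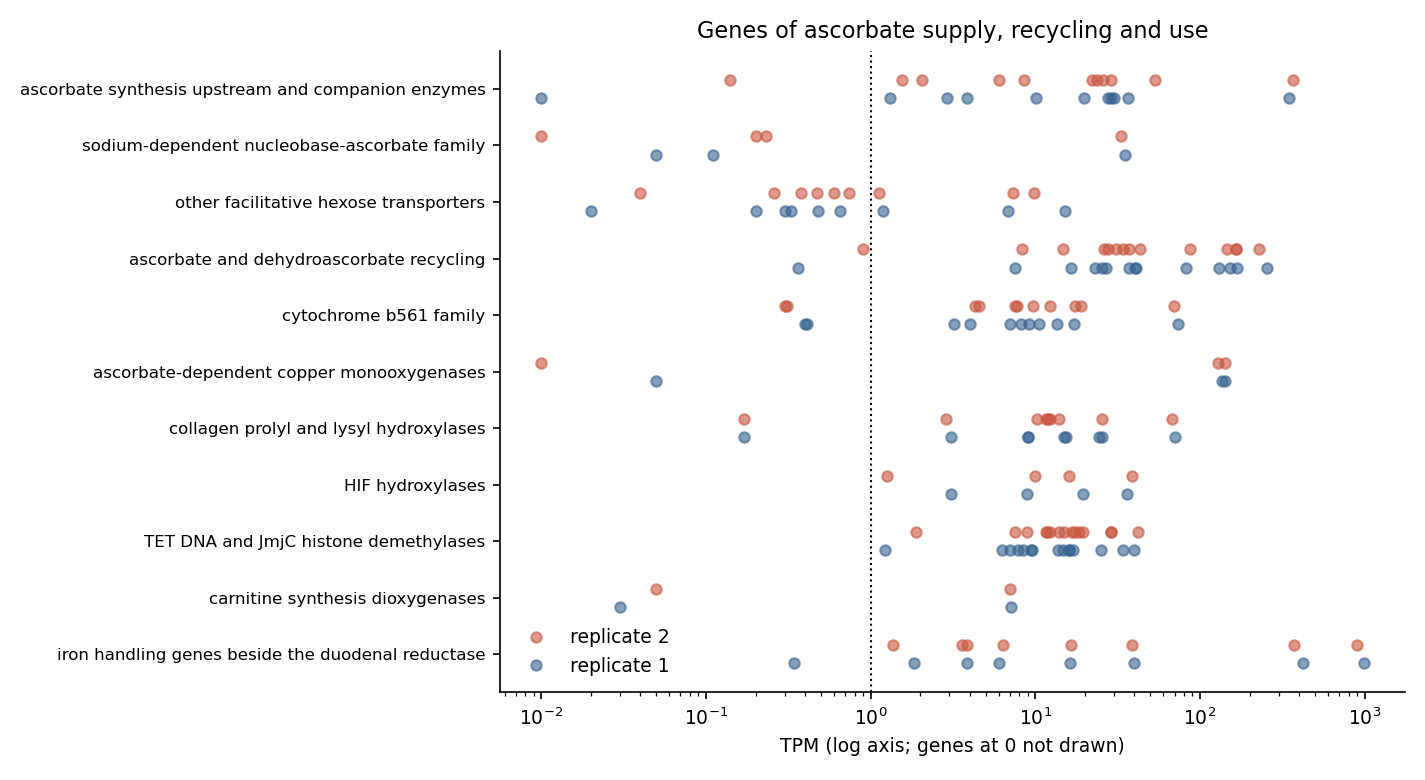
TPM on a log axis of the listed genes of ascorbate supply, recycling and use, with replicate 2 above replicate 1 in each row and a dotted line at 1 TPM; genes at 0 are not drawn (1 value in replicate 2 and 2 in replicate 1). Several recycling genes, Pam and Dbh reach past 100 TPM, while most facilitative hexose transporters lie left of the dotted line.

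Other hexose transporters were mostly low, 3 of 10 at 1 TPM or more. Slc2a4, the insulin-responsive GLUT4, had 9.78 TPM in replicate 2 and 15.07 TPM in replicate 1, above Gulo and Slc2a1 and below Slc23a2 in both animals. Its log2 ratio of -0.71 lay in the direction of the adipocyte markers, and their part in it was not tested. Slc2a8 had 7.35 TPM in replicate 2 and 6.83 TPM in replicate 1, Slc2a13 had 1.12 TPM in replicate 2, against 1.18 TPM in replicate 1, and Slc2a7 was listed at 0 in both. In the iron list, the ferritin chain Fth1 had 900.58 TPM in replicate 2, against 985.2 TPM in replicate 1, and the ferritin chain Ftl1 had 371.13 TPM in replicate 2, against 421.23 TPM in replicate 1. Hamp, the liver hormone hepcidin, was the gene called higher in replicate 2, with 3.86 TPM from 39.6 counts, against 0.34 TPM from 4.06 counts in replicate 1, in the direction of the liver markers. Its mean count was below 100, and the part of the liver markers in it was not tested.

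Several marker lists had medians further from 0 than the ascorbate genes. The chromaffin list had a median log2 ratio of -0.18 with 11 of 11 genes below 0. That of the cortex list was 0.02 with 4 of 10 below 0. Slc23a2 had -0.20, where the median absolute log2 ratio of all genes tested was 0.20. The part of these lists in the Slc23a2 ratio was not tested. Endothelial markers, which bear on Slc2a1, had a median of -0.12 and a summed TPM of 250.4 in replicate 2 and 255.0 in replicate 1. The median of the erythroid markers was -0.46. Neuron markers, which bear on Slc2a3, had a median of -0.26 and macrophage markers of -0.11. The log2 ratio of Slc2a3 was 0.40 by counts and -0.06 by deposited TPM. The part of these lists and of the endothelial one in the Slc2a1 and Slc2a3 ratios was not tested. Schwann and sustentacular markers had a median of -0.66 and smooth muscle markers of -0.54.

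**Figure D5:**
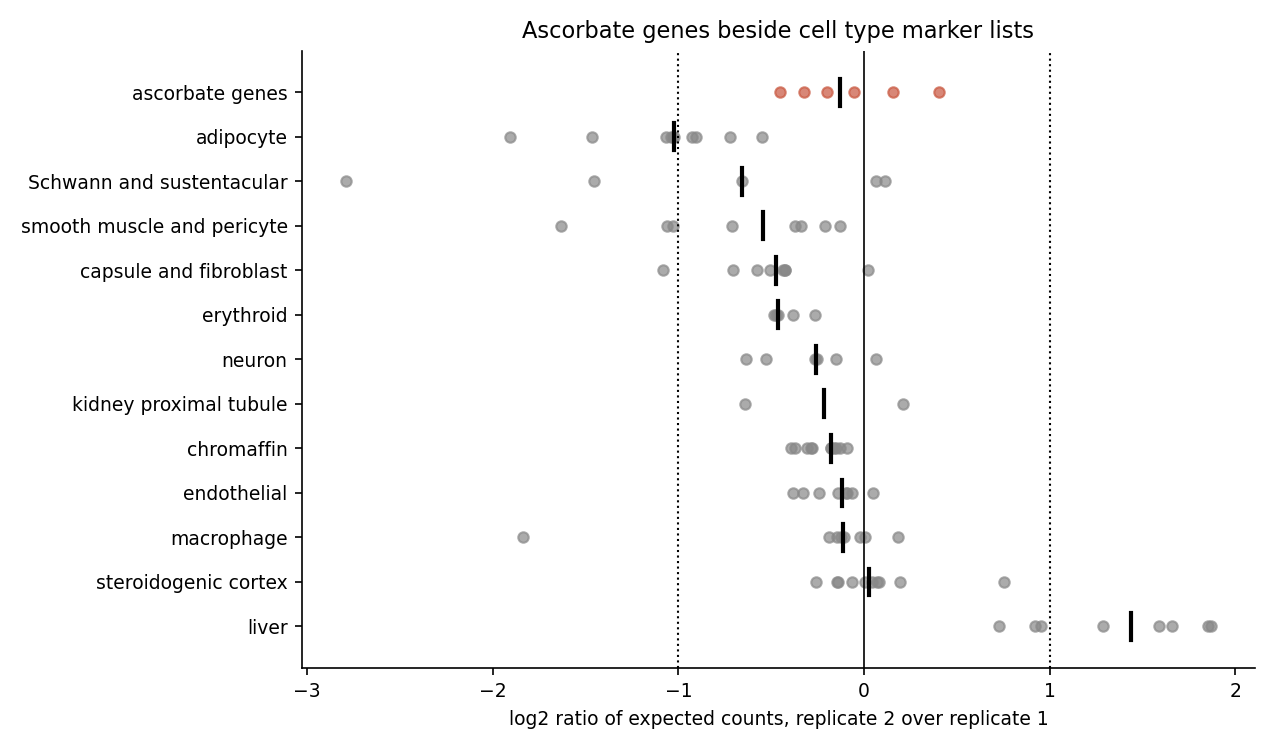
Log2 ratio of expected counts, replicate 2 over replicate 1, for the ascorbate genes (top row) and the genes of each marker list with a mean count of 10 or more, with a bar at each median and dotted lines at 2-fold. The ascorbate genes stay between the dotted lines with a median of -0.13, while liver markers lie to the right of 0 and adipocyte markers to the left.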

How the data were processed

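Each library had a gene and a transcript table derived from alignment to the transcriptome, and a transcript table from a transcript index. Per the labels' notes, mm10 was the assembly and GENCODE M21 gave the annotation. The sources used here give neither the programs and versions nor the use of strand or the handling of CAST alleles. The authors deposited expected counts, estimates that need not be whole and are not normalized. They deposited TPM scaled over all features of a library, and FPKM relative to length and depth. The percent of a gene's TPM in each transcript and the lower and upper bounds of TPM, a signal range whose level is not stated, are also deposited columns.

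Names were matched for 55536 of 55536 gene identifiers. The 26248 tRNA rows and 96 spike-ins were left out of gene totals. Expected counts were rounded and scaled by TMM (edgeR 4.0.16, R 4.3.3), with 0.5 added before the log2 ratio. DESeq2 1.42.0 size factors were an alternative. Counting intervals are exact (Clopper-Pearson, 95%), and these and the limit of 3 counts cover counting error only. TPM of genes in the index-based table are sums over transcripts. Sequences came from GENCODE M21 and the RefSeq promoter table (Python 3.11.15). Simulated libraries with a coefficient of variation of 0.15 over 17758 genes gave a call for 100.0% of genes changed 4-fold and 1.88% of unchanged genes. The changed genes were drawn from those with a mean count of 100 or more, so lower genes such as Rgn and Cybrd1 were not covered. Changes smaller than 4-fold were not simulated. The estimate for the real libraries was 0.168, above the value simulated.

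The 8 genes and all gene lists were chosen with earlier results of these data known. All 8 genes were named. In each pathway list so were the 3 genes with the highest mean TPM and those called with a mean count of 100 or more. In the cortex, chromaffin and liver marker lists the highest gene was named. The highest genes of the other marker lists were not named. For Slc23a2, Slc23a3, Slc2a1 and Slc2a3, transcripts at 1 TPM or more or 10% of their gene in either table were named. Other named genes (Frrs1l, Gsto2, Slc2a7, Hamp, and Kap, Slc34a1 and Slc5a2 at 0) and genes that overlap the 8 were chosen after their values were seen. Alternatives were other scalings, pseudocounts, filters, TPM limits, units, the second table and each library left out. A further shared stretch is not reported here.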

Additional observations from a re-analysis of the deposited data

How the results depend on the processing

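The count of genes at 1 TPM or more in both animals was 5 at limits of 0.5 and 1 TPM, in the index-based table, after rescaling over nuclear protein-coding genes and without either replicate (5 to 5), and 3 at a limit of 5 TPM. No gene of the 8 was called between the animals under any of the 10 other scalings, pseudocounts and tables, or with a mean count of 100 or more. Without a filter on counts 2 were called, Slc23a3 and Slc23a1, from 8 counts or fewer in each library. The log2 ratio kept its sign at every setting for 4 of 6 genes. Slc2a1 ranged from -0.09 to 0.03, and Slc2a3 from -0.06 with deposited TPM to 0.49 with total gene counts. Other scalings moved the median of all genes by 0.09 or less. The count of 3 genes with the same highest transcript in both animals was equal in both tables, with Slc2a3 in the alignment-based count and Slc23a1 in the index-based one. Slc23a2-201 held 81.7% of its gene's TPM on average and 70.9% in the index-based table, and Slc2a1-201 held 61.1% and 49.1%. No paired analysis was possible because there is 1 group. Ratios without a replicate could not be formed. Depth limits Slc23a1 and Slc23a3, and Rgn, Cybrd1 and Slc2a1 have counting intervals that include 0.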
